A study of Homo sapiens with 8 samples.

Results

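Some chromatin sites were already open in SMARCB1-deficient G401 cells and became at least 2 times as high once SMARCB1 was expressed. ATAC-seq reads accessible DNA through the cuts of a transposase, and it gave 60786 regions with a peak in all 4 deposited peak lists, called always open here. Of these, 2858 (4.70%) had a scaled summit on day 1, 3 or 7 of at least 2 times day 0. They are called doubled regions. The series as a whole held 146099 merged regions. The doubled regions were chosen by their summit reads on the same 4 days that are described below, so their height relative to day 0 is a consequence of the choice and carries no test.

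G401 is an established human cell line of a kidney rhabdoid tumour and carries no functional SMARCB1. Day 0 cells were labelled SMARCB1 -/- and were not induced. Cells of days 1, 3 and 7 were labelled SMARCB1 +/+ and had been given doxycycline at 1 µg/ml for that time, which switches on SMARCB1 from a stably integrated construct in otherwise the same line. All groups were grown in serum free of tetracycline. No group had doxycycline without SMARCB1, so the drug, time and SMARCB1 cannot be told apart. The labels do not say whether the line is a single clone, or whether samples of a day came from separate cultures. Each day had 2 samples, 8 in all, yet the values come as 1 peak list for each day. Differences between days therefore stand without a replicate check. The list with neither a day nor the drug in its name was taken as day 0 by elimination.

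SMARCB1 is a core subunit of the SWI/SNF complex, which uses ATP to slide or evict nucleosomes and so exposes DNA to transcription factors. Its loss is the defining lesion of rhabdoid tumours and is known to weaken distal enhancers more than promoters. AP-1, the factor named in the series title, is a dimer of FOS and JUN family proteins that binds enhancers and is known to recruit SWI/SNF. No genome of the build used, hg19, was at hand, so the DNA sequence, motifs and genes of the doubled regions were not analysed here.

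Depth was similar between lists. The genome-wide background, the number of reads most often expected by the peak caller at a position, was 6.34 reads on day 0 and 6.04, 6.73 and 6.10 reads on days 1, 3 and 7. A scaled summit is the number of reads at the highest summit of a region divided by this background. The median doubled region held 34 summit reads on day 0, with 5% to 95% of regions at 22 to 64 reads, and its later counts were 88, 102 and 69 reads on days 1, 3 and 7. Intervals below are 95% intervals. Those of shares treat regions as independent draws, and those of ratios allow for nothing beyond counting of reads.

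Before induction the doubled regions were among the low always open regions, and after induction they stood in the middle. Their median scaled summit was 5.36, 14.6, 15.2 and 11.3 on days 0, 1, 3 and 7. The other 57928 always open regions had medians of 11.5, 12.6, 11.3 and 11.3 on the same days. Ranked among all always open regions, the median doubled region lay at percentiles 13.6, 56.8, 64.2 and 50.3 in turn. They did not become the highest of the always open regions, since the highest doubled summit was 36.9 times background on day 1, against 47.5 among the other always open regions.

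**Figure D1:**
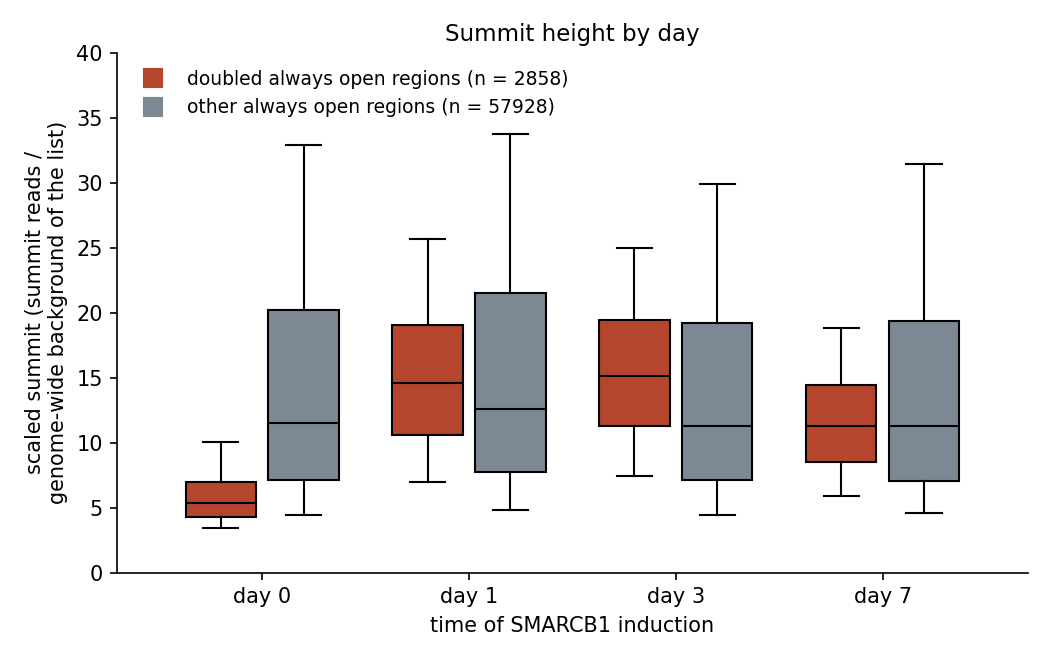
Scaled summits (summit reads over the list's genome-wide background) of the 2858 doubled and the 57928 other always open regions on each day. Boxes span the quartiles with the median as a line, and whiskers run from 5% to 95% of regions. The doubled regions lie low on day 0, at a median of 5.36, and overlap the others widely on days 1, 3 and 7.

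Most doubled regions were at least 2 times day 0 on more than 1 induced day. Day 1 gave 2363 such regions (3.89% of all always open regions), day 3 gave 2444 (4.02%) and day 7 gave 1352 (2.22%). Scaled instead by the median summit of the always open regions of each list, the counts were 1645, 2180 and 1261. The near equality of days 1 and 3 thus depended on the scaling. The 3 ratios share the same day 0 list, so their agreement is not independent evidence. The largest set, 1155 regions or 40.4% (38.6 to 42.2) of the doubled regions, was above the limit on all 3 days. Another 861 (30.1%) were above it on days 1 and 3, 334 on day 1 only and 311 on day 3 only. Late sets were small, with 117 regions on days 3 and 7 and 67 on day 7 only. Just 13 were above the limit on days 1 and 7 but not on day 3.

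The sets differed in how low they began and in how much height they held on day 7. They are defined by the same summits, so these differences follow at least in part from the grouping and carry no test. The regions above the limit on all 3 days had the lowest day 0 summits of the 3 large sets, with medians of 4.89, 16.1, 17.5 and 13.3 on days 0, 1, 3 and 7. Regions above it on days 1 and 3 had medians of 6.31, 15.9, 15.3 and 10.5. Regions above it on day 1 only had medians of 6.46, 14.2, 11.4 and 8.61. The day 7 only set, whose medians were 4.26, 6.78, 7.43 and 9.67, had its highest median on day 7.

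**Figure D2:**
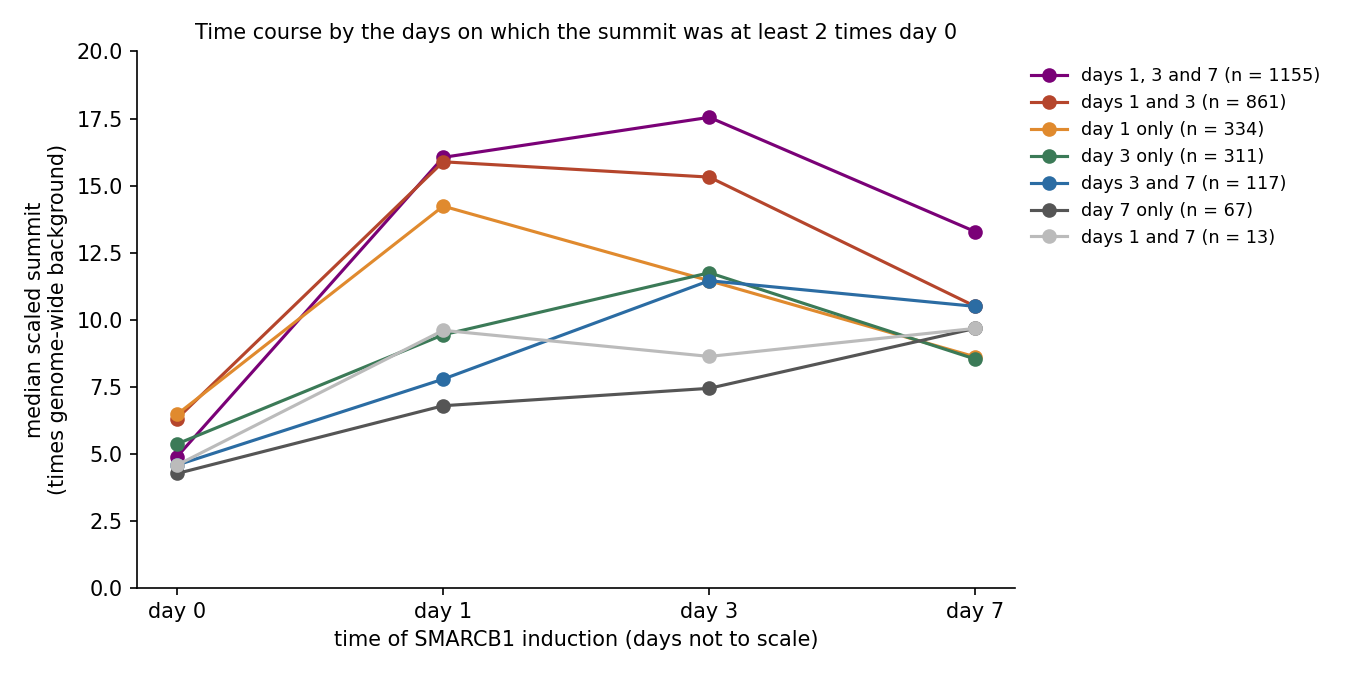
Median scaled summit on days 0, 1, 3 and 7 for the 7 sets of doubled regions, named by the days on which the scaled summit was at least 2 times day 0, with the number of regions in each. The days are equally spaced. The sets are defined by these same summits, so their order follows at least in part from the grouping. The 3 sets that include day 1 and hold most regions peak on day 1 or 3 and are lower on day 7, and the day 7 only set, at 6.78 on day 1, is highest on day 7.

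Day 7 was lower than day 3 in most doubled regions. The median step from day 3 to day 7 was -0.41 on the log2 scale (SD over regions 0.29), and 92.7% of the doubled regions were lower on day 7. Among the other always open regions the same step had a median of 0.03 (SD 0.23), and 43.6% were lower. The step from day 1 to day 3 had medians of 0.04 in the doubled regions and -0.15 in the others. Of the height added over day 0 by the higher of days 1 and 3, the median region still had 54.6% on day 7 (quartiles 41.5% and 68.4%, 2791 regions that were at least 2 times day 0 by day 3). Day 3 was the highest induced day in 1480 doubled regions (51.8%), day 1 in 1212 (42.4%) and day 7 in 166 (5.81%). In the other always open regions the highest induced day was day 3 in 13.3%, day 1 in 68.6% and day 7 in 18.2%. Choosing regions for a high day 1 or day 3 by itself favours a lower day 7, and its part in this step was not tested. In the doubled regions the choice between days 1 and 3 depended on scaling. How far the lead of day 1 in the others did so was not tested. With the background scaling, the median summit of all always open regions was 1.15, 1.05 and 1.02 times day 0 on days 1, 3 and 7. Dividing by the median summit of the always open regions of each list, which shifts day 1 by 0.21 on the log2 scale relative to day 0, day 3 by 0.07 and day 7 by 0.04, left 2368 doubled regions and put 73.7% of them highest on day 3.

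Most doubled regions were not far above the limit. A ratio of at least 3 on the highest day was seen in 1005 (35.2%), of at least 4 in 363 (12.7%), of at least 5 in 109 and of at least 7 in 5. The median ratio on the highest day was 2.65, with 5% to 95% of regions at 2.04 to 4.77. The regions named next have the highest ratios on each day, so their ratios are high by selection. They held 19 to 29 summit reads on day 0, close to the lowest count of any day 0 peak, 18 reads.

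The highest ratio was at chromosome 4, 4811795 to 4813186 (hg19, as all positions here). Its summit held 20, 155, 181 and 111 reads on days 0, 1, 3 and 7. That is 8.13 times day 0 on day 1 (5.09 to 13.7), 8.54 times on day 3 (5.37 to 14.3) and 5.77 times on day 7 (3.56 to 9.81). The peak was also wider after induction, at 228, 1280, 1381 and 1120 bp on the same 4 days. It was 1 peak in each list, and its summit lay 7, 25 and 125 bp from the day 0 summit. A narrow, weak opening thus stood at the same place as the later broad one.

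A second region lay at chromosome 5, 125004395 to 125005331, where the summit held 24, 176, 176 and 98 reads on days 0, 1, 3 and 7. Its authors' fold, which sets the summit against the local background of the same list, was 3.40 on day 0 and 13.8, 12.4 and 11.9 on days 1, 3 and 7. The ratio of this fold to day 0, 4.06 on day 1, was the highest of any doubled region. Its nearest other doubled region lay 7.6 kb away. The region with the next highest fold ratio, at chromosome 18, 27041930 to 27042628, lay 270.3 kb from the nearest always open region and 31.4 kb from the nearest region that had peaks on days 1, 3 and 7 but not on day 0. It held 21, 92, 121 and 76 reads, and its fold was 3.98 times day 0 on day 3.

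After scaling, the region on chromosome 5 was higher on day 1 than on day 3, and so were a further pair named for their day 1 ratio. Before scaling, the reads of this pair were higher on day 3, so the order of its days 1 and 3 depended on the scaling. One was chromosome 14, 55976419 to 55977520, with 20, 139, 142 and 80 reads on days 0, 1, 3 and 7. The other, chromosome 9, 123492318 to 123493938, held 29, 193, 207 and 137 reads. Its later summits lay 359 to 362 bp from the day 0 summit, inside a peak that was 479 bp wide on day 0 and 1312 to 1499 bp on days 1 and 3. Both regions were lower on day 7 than on days 1 and 3 while still above 4 times day 0, at 4.16 times (2.52 to 7.17) and 4.91 times (3.27 to 7.61).

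Other named regions had their highest value on day 3. Chromosome 21, 30486838 to 30487913, held 21, 89, 162 and 89 reads on days 0, 1, 3 and 7, so that days 1 and 7 had the same number. Chromosome 5, 149294911 to 149296383, held 19, 88, 141 and 85 reads and was split into 2 peaks on day 3. Its summits on days 1, 3 and 7 lay 235, 208 and 1050 bp from the day 0 summit. Its day 0 peak was 221 bp wide, so the summits of days 1 and 7 lay outside that peak. The counts of this region thus come from different places within it. Chromosome 2, 149030601 to 149031548, held 23, 130, 174 and 122 reads. All 3 followed the order of the median of the largest set, with day 3 at the top.

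The highest day 7 ratios included a further pair of regions. Chromosome 3, 67980504 to 67981870, held 22, 110, 155 and 125 reads on days 0, 1, 3 and 7 and had the highest day 7 ratio, 5.91 (3.73 to 9.76). Chromosome 14, 52817836 to 52819168, held 23, 81, 113 and 123 reads, a ratio of 3.70 on day 1 (2.30 to 6.16), 4.63 on day 3 (2.94 to 7.60) and 5.56 on day 7 (3.54 to 9.10). Its value was higher on each later day. The other regions named for the highest ratios on each day were all highest on day 1 or 3.

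The doubled regions that were highest before induction were barely past the limit. Chromosome 12, 51764903 to 51766227, had the highest day 0 summit of all, 17.5 times background, and held 111, 223, 215 and 166 reads on days 0, 1, 3 and 7. The next were chromosome 22, 42795092 to 42796334, with 105, 203, 189 and 138 reads, and chromosome 12, 54130771 to 54131941, with 99, 195, 191 and 123 reads. All 3 were at least 2 times day 0 on day 1 only, at 2.11 (1.67 to 2.67), 2.03 (1.60 to 2.59) and 2.07 (1.62 to 2.66) times day 0.

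A few regions returned to day 0 height. Of the regions at least 2 times day 0 on day 1, 73 were under 1.2 times on day 7, and 18 were below day 0. The lowest day 7 ratio to day 0 was at chromosome 2, 164569938 to 164571078, with 55, 109, 93 and 38 reads on days 0, 1, 3 and 7. Its day 7 ratio of 0.718 (0.462 to 1.11) had an interval that included 1. Chromosome 6, 34919154 to 34920396, held 61, 124, 105 and 48 reads, and chromosome 12, 107137049 to 107137700, held 31, 75, 55 and 25 reads. Both were lower on day 3 than on day 1 and lower again on day 7.

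The reverse course was rarer, since 11 doubled regions were under 1.2 times day 0 on day 1. The highest day 7 ratio among these was at chromosome 6, 155826395 to 155827520, with 25, 24, 28 and 57 reads on days 0, 1, 3 and 7. Its day 7 ratio was 2.37 (1.46 to 3.96). Chromosome 11, 17735574 to 17736396, held 29, 28, 44 and 65 reads, and chromosome 5, 91916750 to 91917677, held 22, 20, 27 and 49 reads. On day 3 the summits on chromosomes 6 and 5 lay 520 and 467 bp from the day 0 summit. On day 7 they lay 48 and 39 bp from it. The region on chromosome 6 was split into 2 peaks on day 3. At these low read numbers the day 1 intervals were wide, 0.551 to 1.84 at the first of the 3.

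The local background around the doubled regions was higher as well. On the highest day it was above day 0 in 2830 doubled regions (99.0%), with a median ratio of 1.62 after scaling for depth. Among the other always open regions it was counted above day 0 in 53.6%, with a median ratio of 1.00. Regions at the genome-wide background on both days have a ratio of 1 and were split by rounding. Both shares are therefore approximate, more so that of the others. On day 3, 15.9% of the others and 2.17% of the doubled regions were at that background. This background comes from reads in a window around the summit, and reads of the peak itself fall into that window. How much of the higher background came from the peak itself was not tested. At chromosome 5, 78223364 to 78224134, the background was 6.34, 20.9, 31.3 and 22.9 reads on days 0, 1, 3 and 7, and summit reads were 22, 101, 135 and 110. The fold there was only 1.49, 1.34 and 1.49 times day 0. Chromosome 4, 103325599 to 103326342, was similar, with summit reads of 32, 129, 165 and 116 and fold ratios of 1.25, 1.16 and 1.11, and another doubled region lay 0.4 kb away.

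By the authors' fold the doubled regions were higher too, but by less. The fold on the highest day had a median of 1.75 times day 0, was above day 0 in 2830 regions (99.0%) and was at least 2 times day 0 in 778 (27.2%), against 1.29% of all always open regions. Fold is computed from the same summit reads that chose the regions, so nothing is read from that share. The share with a fold ratio of at least 2 was 44.9% in the set above the limit on all 3 days, 20.4% in the set of days 1 and 3, 8.68% in the day 1 only set and 9.32% in the day 3 only set. Peaks with a fold of at least 6 made up 2.27%, 43.3%, 44.4% and 28.9% of the doubled regions on days 0, 1, 3 and 7. Among the other always open regions they were 28.4%, 31.6%, 27.5% and 27.9%.

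**Figure D3:**
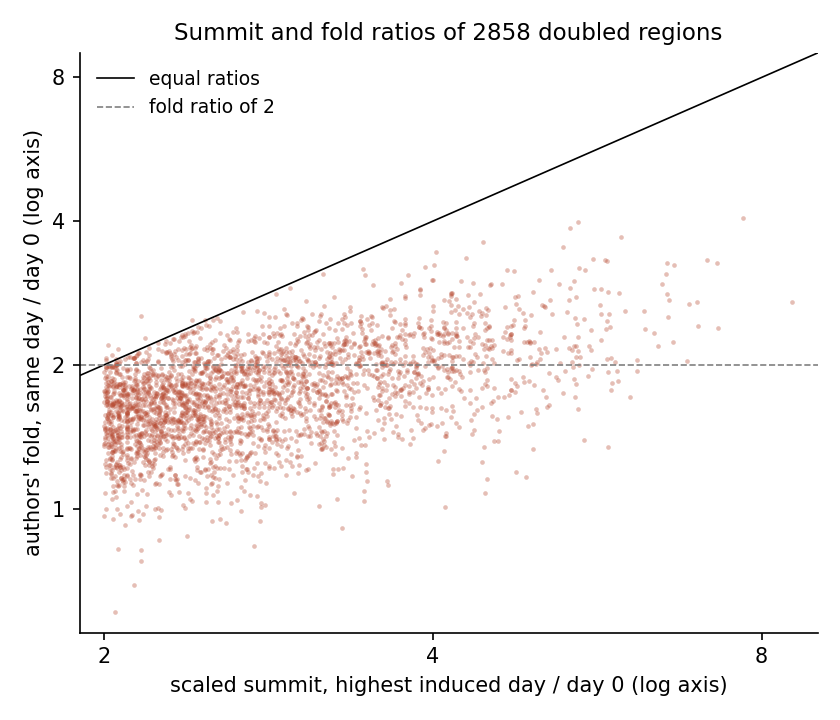
Each point is 1 of the 2858 doubled regions, with the scaled summit on its highest induced day relative to day 0 on the horizontal axis and the authors' fold on that day relative to day 0 on the vertical axis, both on log axes. Nearly all points lie below the solid line of equal ratios, and 778 reach the dashed line at a fold ratio of 2.

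The doubled regions also became wider. The peak with the highest summit was wider on the highest day than on day 0 in 2832 doubled regions (99.1%), against 63.7% of the others. Its median width was 370, 829, 876 and 745 bp on days 0, 1, 3 and 7. In the other always open regions the medians were 562, 625, 611 and 583 bp on those days. Width was at least 2 times day 0 on the highest day in 1671 doubled regions (58.5%), against 6.38% of all always open regions. A higher peak stays above the calling limit over more bases, so width is not independent of height. Taking any induced day, 4956 always open regions had a peak at least 2 times as wide, and 1784 of these were doubled regions, which is 36.0% of the widened and 62.4% of the doubled regions.

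In most doubled regions the summit stayed at the same place. The distance from the summit on the highest day to the day 0 summit had a median of 69 bp and was at most 150 bp in 2223 (77.8%) of the doubled regions. The other always open regions had a median of 28 bp, and 92.8% were within 150 bp. Summits moved by over 500 bp in 155 doubled regions (5.42%), against 1.26% of the others. A single peak in each list was found in 2512 doubled regions (87.9%). Several separate day 0 peaks were found in 159 (5.56%), against 3.18% of the others, and in 150 of the 159 there was 1 peak on the highest day.

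A low day 0 summit went with a larger share of doubled regions. Day 0 height is part of the ratio that chose them, and counting error is wider at low heights; the part of either in this order was not tested. Of the always open regions with a day 0 summit under 4 times background, 573 of 2147 (26.7%, 24.8 to 28.6) were doubled. The share was 15.6% at 4 to 5 times background, 10.7% at 5 to 6, 7.17% at 6 to 8, 4.08% at 8 to 10 and 1.25% at 10 to 15. Above that, 4 of 6866 regions at 15 to 20 times background were doubled, and 0 of 14816 regions at 20 or more, which allows up to 0.0249%. The highest always open summit on any day was 47.5 times background.

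In classes of similar day 0 height, the doubled regions also differed from the others in their local background on day 0. The choice did not use this background directly. It is not independent of the summit reads, since both were recovered from the same values and reads of the peak fall into its window. How much of the differences in background and width came with the choice was not tested. At 5 to 6 times background, the median local background was 9.76 reads around 591 doubled regions, against 6.86 reads around 4937 other regions. At 6 to 8 times background it was 11.9 reads around the doubled regions and 8.40 reads around the others, and at 8 to 10 it was 14.0 and 10.5 reads. The share of peaks whose background equalled the genome-wide value was 4.60% of the doubled regions and 32.3% of the others at 6 to 8 times background. Under 4 times background both medians were at the genome-wide value. The median day 0 width was 373 bp in the doubled regions and 364 bp in the others at 5 to 6 times background. It was 454 and 422 bp at 6 to 8 times, 571.5 and 478 bp at 8 to 10 times, and 673 and 568 bp at 10 to 15 times, so the doubled regions were the wider ones in each of these classes.

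**Figure D4:**
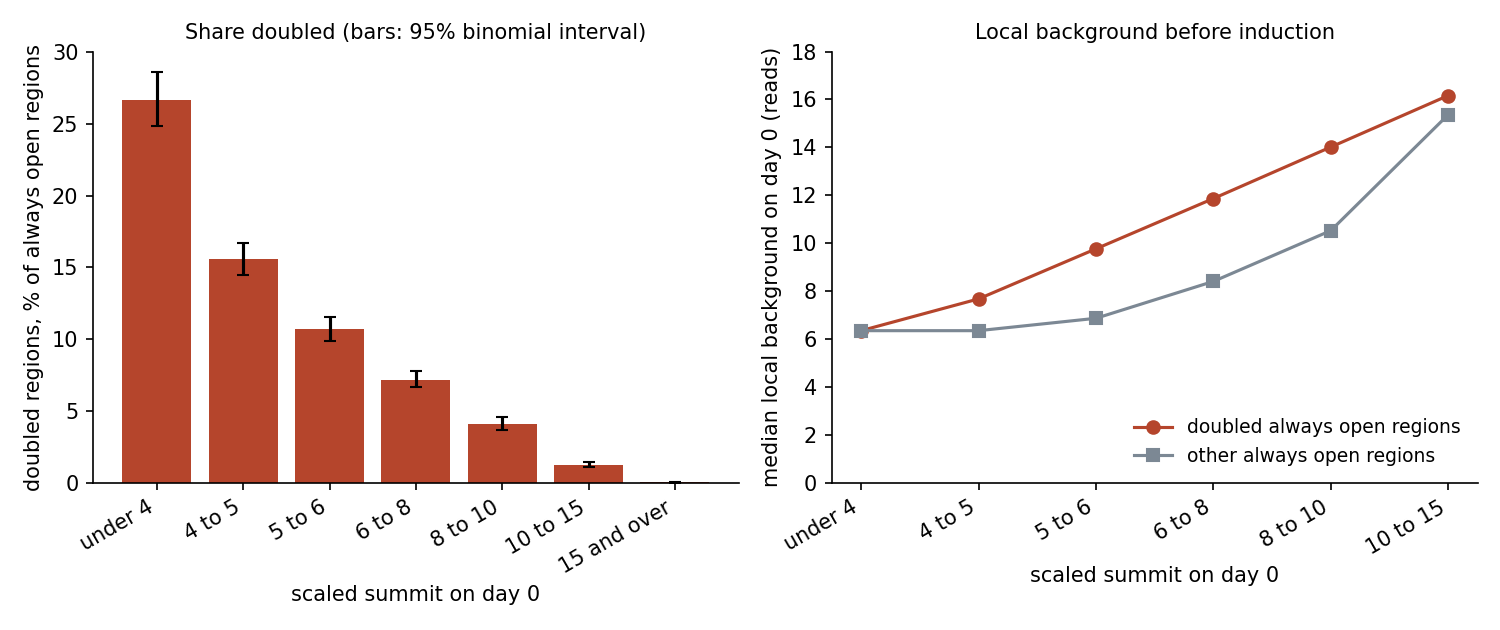
Left, the percentage of always open regions that were doubled, by scaled summit on day 0, with exact 95% binomial intervals. Right, the median local background on day 0 in reads for doubled and other always open regions of the same day 0 height. The share falls from 26.7% under 4 times background to 1.25% at 10 to 15 times, and the doubled regions have the higher background in each class from 4 to 15.

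Doubled regions lay closer to regions that opened anew. Gained regions are those with peaks on all 3 induced days and none on day 0. The median gap to the nearest gained region was 17.6 kb for the doubled regions, against 36.2 kb for the others. A gained region lay within 50 kb of 2270 doubled regions (79.4%, 77.9 to 80.9), against 59.9% of the others (59.5 to 60.3), and within 10 kb of 33.7% of the doubled regions and 17.6% of the others. The order was the same at matched day 0 height. At 4 to 8 times background on day 0, 79.6% of the doubled regions and 53.6% of the others had a gained region within 50 kb. Doubled regions did not lie closer to always open regions in general, with a median gap of 9.88 kb, against 7.24 kb for the others. At 4 to 8 times background that order was reversed, at 9.37 kb for the doubled regions and 12.4 kb for the others.

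Doubled regions also lay closer to each other. Another doubled region was within 50 kb of 935 of them (32.7%, 31.0 to 34.5), and a doubled region was within 50 kb of 15.5% (15.2 to 15.8) of the other always open regions. To leave out neighbours that share the background window, the nearest always open region at a gap of at least 10 kb was taken. It was itself doubled for 322 of 2858 doubled regions (11.3%, 10.1 to 12.5) and for 4.62% (4.45 to 4.79) of the others. The share was 10.9% of doubled regions at gaps of 10 to 20 kb, 12.0% at 20 to 50 kb and 13.3% (8.79 to 19.0) at 50 to 100 kb. Most such neighbours were thus not doubled, and their median scaled summit was 1.12, 1.01 and 1.01 times day 0 on days 1, 3 and 7 beside doubled regions, against 1.06, 0.943 and 0.971 beside the others.

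**Figure D5:**
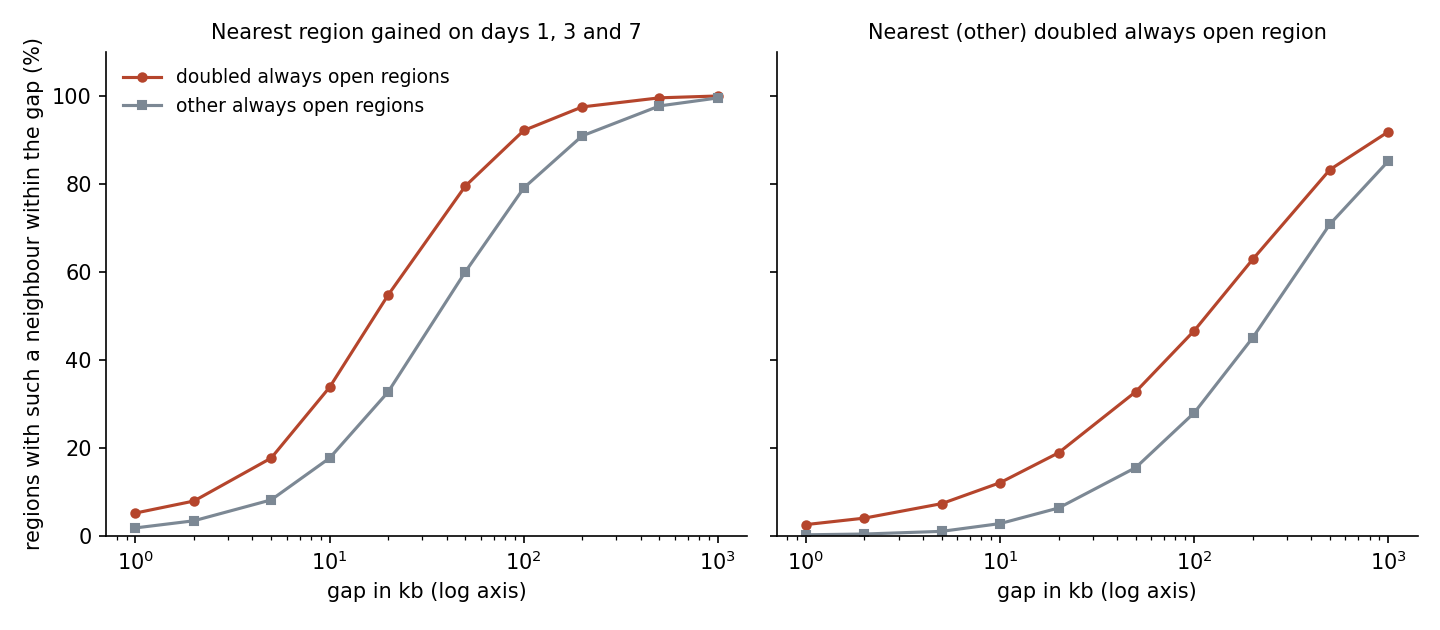
Percentage of doubled and of other always open regions with a neighbour within the gap on the horizontal axis (log scale, kb). Left, the neighbour is a region gained on days 1, 3 and 7. Right, it is another doubled region. Within 50 kb the shares are 79.4% and 59.9% on the left, and 32.7% and 15.5% on the right.

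Joined at gaps of up to 50 kb, the doubled regions formed 306 pairs and 95 groups of 3 or more, holding 935 regions in all, and 1923 stood alone. The largest groups, 8 in number, held 5 regions each. Consecutive doubled regions within 50 kb had the same highest day in 295 of 534 pairs (55.2%), against 1066 of 2300 pairs (46.3%) further apart. The 2 shortest of the 8 largest groups are described, a choice made after their values were seen because all 8 tie in size.

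The shorter group spanned 32.4 kb at chromosome 10, 5601554 to 5633947, and held 10 merged regions, 7 of them always open and 0 gained. Its 5 doubled regions were all highest on day 3, with 126, 112, 142, 125 and 122 summit reads on that day, against 42, 51, 58, 55 and 42 reads on day 0. None was above the limit on all 3 days, and on day 7 the ratios were 1.37 to 1.91. The fold ratios on day 3 were smaller, at 1.07 to 1.74.

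The other spanned 39.6 kb at chromosome X, 41311919 to 41351481, with 8 merged regions, 7 of them always open and 1 gained. Its 5 doubled regions had median ratios to day 0 of 2.46, 2.53 and 1.98 on days 1, 3 and 7. Its last region, at 41350567 to 41351481, went furthest, with 23, 78, 95 and 49 reads on days 0, 1, 3 and 7, and was the one above the limit on all 3 days.

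Chromosomes differed in the share of their always open regions that were doubled. Only the autosomes and chromosome X, 23 in all, were compared, while regions outside them are part of the totals given above. Among these, the lowest shares were on chromosome 19, 40 of 3127 (1.28%, 0.915 to 1.74), and chromosome X, 34 of 1298 (2.62%, 1.82 to 3.64). The highest were on chromosome 10, with 169 of 2830 (5.97%, 5.13 to 6.91), and chromosome 18, with 5.89% (4.54 to 7.48). Chromosome 19 had the highest median day 0 summit, 17.0 times background, and chromosome X had 9.62. Among regions of 4 to 8 times background on day 0, 6.40% (4.23 to 9.24) were doubled on chromosome 19, 4.85% (3.10 to 7.19) on chromosome X and 11.6% (9.58 to 13.9) on chromosome 10. Relative to chromosome 10, the share on chromosome 19 was thus less low at matched day 0 height, and chromosome X then had the lowest share of the 23.

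Counting error was sizeable for single regions. On the highest day the interval of the ratio lay above 1 in all 2858 doubled regions, above 1.5 in 2257 (79.0%) and above 2 in 1035 (36.2%). These intervals do not allow for the choice of regions among 60786. That all lay above 1 was set by the rule. Every doubled region held at least 18 reads on day 0, and a ratio of at least 2 then gives such an interval. Just inside the limit, chromosome 11, 118288284 to 118288919, and chromosome 17, 72267378 to 72267877, both held 70 reads on day 3 and 33 on day 0. Just outside it, chromosome 2, 2847905 to 2848364, and chromosome 3, 190565069 to 190565642, both held 53 reads on day 3 and 25 on day 0. With the authors' fold in place of the scaled summit 840 regions were doubled, and with a reciprocal overlap of 50% with the day 0 peak 1052. In a bulk assay, more cells with an open site and more cuts per cell cannot be told apart.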

How the data were processed

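G401 cells were profiled by ATAC-seq on 4 days, with 2 samples each. The deposited file is of narrowPeak layout and joins 4 peak lists, 411408 peaks in all. Per the submitters' processing notes, Bowtie2, deepTools, MACS2 2.1.1.20160309 and the build hg19 were used. Not given in the sources used here were read filters, any transposase offset and the pooling of replicates. Each peak has, as deposited by the authors, a score derived from its q-value, a fold (ratio of summit to local background), a -log10 p, a -log10 q (p-value and q-value) and a summit offset in bp.

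Summit reads k and local background b were recovered from fold = (k + 1) / (b + 1) and from p as the Poisson chance of more than k reads. The misfit was at most 0.000863 in -log10 p, and the next whole number missed by at least 0.0272. Peaks sharing at least 1 bp were merged, each day took its highest summit in a region, and k was divided by the most frequent b of the list. The scripts were tested on simulated data.

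Ratios have exact conditional binomial intervals and shares exact Clopper-Pearson intervals, both at 95%. Counting error is all they cover, and PCR duplicates would leave the ratio intervals too narrow. With 1 list per day no test over samples was possible. Regions were named by fixed ranks: the 4 highest ratios on each induced day, the 3 highest day 0 summits, the 3 lowest day 7 ratios among those doubled on day 1, the 3 highest day 7 ratios among those under 1.2 times on day 1, the 2 highest ratios of fold and of local background, the 2 largest groups, and 2 on either side of the limit. Ties between regions were broken by chromosome and position, and the tie between groups by the shortest span, which was chosen after their values were seen. The doubled regions, this rule, the alternatives and the height classes were chosen with earlier results of these data known. Python 3.11.15, NumPy 2.4.6, pandas 2.3.3, SciPy 1.17.1 and matplotlib 3.10.9 were used.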

Additional observations from a re-analysis of the deposited data

How the results depend on the processing

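Each of 10 alternatives left most doubled regions wider and with a higher background, while counts and shares moved; causes were not tested. No paired analysis was possible because peak lists hold no value per sample. Scaling by the median summit gave 73.7% highest on day 3, 30.6% doubled by fold, 97.6% with a higher background and 28.3% near another doubled region (within 50 kb). Reciprocal overlap of 50% gave 1052 regions, with 27.8% above the limit on all 3 days and 42.1% highest on day 3. In that setting 14.4% were doubled by fold, 97.7% were wider, 98.6% had a higher background and 17.4% were near another. A limit of 1.5 gave 6908 regions, with 40.2% highest on day 3, 11.3% doubled by fold, 95.6% wider, 91.9% with a higher background, 49.2% near another and 74.2% near a gained region. A limit of 3 gave 1005, with 25.4% above that limit on all days, 61.3% highest on day 3, 51.8% doubled by fold, 100% wider, 100% with a higher background and 14.4% near another. A score of at least 50 gave 22.9% doubled by fold, 28.8% near another and 77.0% near a gained region. A single peak in each list gave 29.1% doubled by fold and 30.1% near another. Summits within 150 bp gave 49.7% highest on day 3 and 27.3% near another. The authors' fold as the measure gave 840 regions, with 24.9% above the limit on all 3 days, 48.8% highest on day 3, 100% doubled by construction, 99.9% wider, 95% with a higher background, 5.36% near another and 71.8% near a gained region. An interval above 1.5 gave 49.98% on all 3 days, 53.7% highest on day 3, 31.7% doubled by fold, 99.7% with a higher background and 27.6% near another. At least 30 day 0 reads gave 1845 regions, with 34.4% on all 3 days, 47.4% highest on day 3, 17.1% doubled by fold, 99.5% with a higher background and 27.6% near another. The share near another doubled region depends on how many regions a setting leaves. The share near a gained region was 71.8% to 80.5% over all alternatives. Depth limits single regions, since the median doubled region held 34 reads on day 0.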
